A study of Mus musculus with 12 samples.

Results

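The mitochondrial carriers of solute carrier family 25 were taken as every gene whose symbol is Slc25a followed by a number, which gave 46 genes of the 17912 listed in either of the 2 deposited count tables. The table of the constitutive model listed 45 of them among 17260 genes, and the table of the inducible model listed all 46 among 17325. Slc25a41 was in the second table alone. The rule used no measured value, and it leaves out family members that carry other symbols, such as the uncoupling proteins and the Mtch genes, which are described separately below.

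RNA was sequenced from the left ventricle of male mice in 4 groups of 3 libraries. The group mCKO came from 8-week-old DDX5fl/fl MYH6Cre+ mice and CTR1 from age-matched Ddx5flox/flox mice without Cre, both untreated. The group iCKO came from Ddx5flox/flox Myh6MerCreMer mice that received tamoxifen intraperitoneally at 20 mg/kg/day, for 5 consecutive days according to the sample labels, whereas the design text speaks of 7 days of injection. CTR2 came from Ddx5flox/flox mice of matched age given the same dose. For these 2 groups no source used here states the age. Every group carried the floxed alleles of Ddx5, which encodes an RNA helicase, and the Myh6 promoter directs Cre to cardiomyocytes. Neither control carried Cre, so an effect of Cre and of the loss of Ddx5 cannot be told apart in either comparison, and a gene's share of RNA in a piece of ventricle depends on both cell number and RNA per cell, which cannot be told apart here. Nothing in the labels says that the 3 libraries of a group came from separate animals, so the p-values measure the spread between these libraries, which may be technical.

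SLC25 carriers are encoded in the nucleus and most of them sit in the inner mitochondrial membrane, where they exchange nucleotides, phosphate, keto acids, amino acids, acylcarnitines and cofactors between cytosol and matrix. In heart muscle, whose contraction runs largely on mitochondrial ATP, ADP enters and ATP leaves through the ADP/ATP carriers, phosphate enters through Slc25a3, fatty acids enter as acylcarnitines through Slc25a20, and reducing equivalents of cytosolic NADH pass inward through the malate-aspartate shuttle, which joins Slc25a11 with Slc25a12 and Slc25a13. A few members lie elsewhere: Slc25a17 in peroxisomes and Slc25a46 in the outer mitochondrial membrane.

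Library totals ran from 19682268 to 25871882 counts. Ddx5 itself stood at 636, 636 and 397 CPM (counts scaled to a common library size) in the CTR1 libraries against 233, 232 and 218 in mCKO, and at 566, 697 and 597 in CTR2 against 216, 219 and 192 in iCKO, so each knockout library was below each of its control libraries. Summed cardiomyocyte markers (8 genes, among them Myh6, Tnnt2 and Ryr2) were abundant in every library, at 65862 to 101765 CPM in CTR1, 56464 to 89585 in mCKO, 85191 to 97300.4 in CTR2 and 46177 to 55471 in iCKO. In the constitutive experiment both replicate 3 libraries stood apart from replicates 1 and 2, and same-numbered libraries deviated together (correlations of their deviations 0.464, 0.532 and 0.823). Replicates 1 and 2 of the 2 groups correlated as much across numbers (0.553 and 0.529), so these values set replicate 3 apart and do not single out the match of 1 with 1 and 2 with 2. Since each same-numbered pair was over 0.1, for mCKO values from a fit that takes the number as a block are given beside the fit without it. In the inducible experiment the numbers did not pair, but replicate 3 of iCKO and replicate 2 of CTR2 each stood apart from the other libraries of their group. No 2 libraries of a group agreed within sampling noise.

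In control ventricle a few carriers supplied most of the carrier mRNA. Per length, as RPKM (the CPM divided by exon length in kilobases), Slc25a4, the heart and muscle ADP/ATP carrier (chromosome 8, 46207168 to 46211062 on GRCm38.p6, RefSeq), had a level of 2955 ± 75.6 (SD, n = 3) in CTR1. Slc25a3, the phosphate carrier, followed at 445 ± 27.2, then Slc25a11, the oxoglutarate carrier, at 299 ± 4.14, Slc25a5, the more widely expressed ADP/ATP carrier, at 201 ± 10.5, Slc25a34, a carrier whose substrate is not settled, at 103 ± 14.2, and Slc25a20, the acylcarnitine carrier, at 57.3 ± 2.83. The CTR1 libraries of each of the first 5 lay clear of those of the next gene in this order, whereas Slc25a20, Slc25a39, Slc25a12 and Slc25a13 each overlapped its neighbour in that order. Slc25a13 lay clear of Slc25a42, the next. CTR2 had the same first 6 carriers in the same order. On GRCm38.p6 in RefSeq the genes lie at chromosome 10, 91116574 to 91124046 (Slc25a3), chromosome 11, 70644019 to 70647531 (Slc25a11), chromosome X, 36795597 to 36798808 (Slc25a5), chromosome 4, 141618819 to 141623891 (Slc25a34) and chromosome 9, 108662136 to 108684642 (Slc25a20), and counts were per gene rather than per exon or transcript.

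The order was different in iCKO. Slc25a4 remained first at an RPKM level of 1245 ± 192, but Slc25a5 came second at 192 ± 37.7, above Slc25a3 at 154 ± 13.2 and Slc25a11 at 75.9 ± 6.39, each clear of the next. Slc25a39, a glutathione carrier, came next at 39.5 ± 3.97. Slc25a34 dropped to ninth place at 15.5 ± 5.66, where its libraries overlapped those of Slc25a13 and Slc25a23. In mCKO the first 5 places were as in the controls, and Slc25a39 and Slc25a20, next in line, overlapped.

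**Figure D1:**
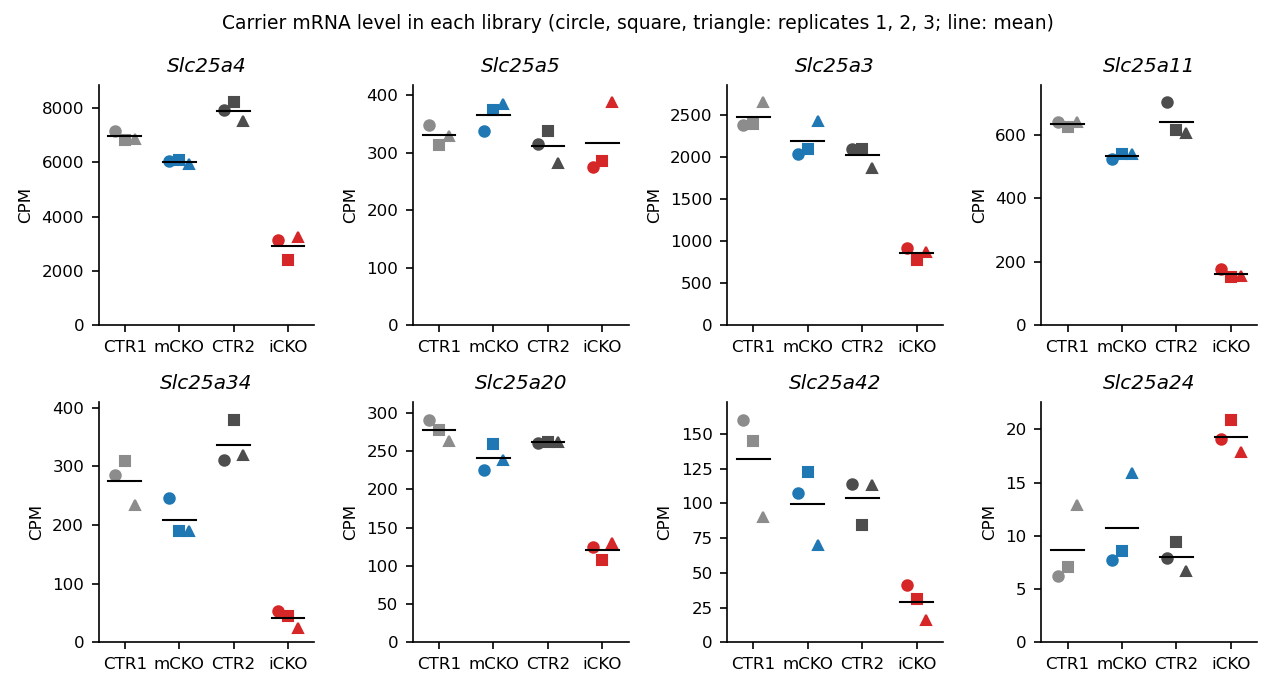
Level of 8 carriers in each of the 12 libraries, in CPM on a linear axis from 0, with circle, square and triangle for replicates 1, 2 and 3 and a line at the group mean. Slc25a4, Slc25a3, Slc25a11, Slc25a34, Slc25a20 and Slc25a42 lie lower in the 3 iCKO libraries than in any CTR2 library, Slc25a24 lies higher, and the Slc25a5 libraries of iCKO and CTR2 overlap.

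All carriers together took 1.23, 1.20 and 1.24% of the counts in the CTR1 libraries, 1.11, 1.12 and 1.16% in mCKO, 1.23, 1.25 and 1.17% in CTR2 and 0.628, 0.533 and 0.595% in iCKO. On the CPM scale the summed carrier level was 13072 ± 579 (SD, n = 3) in CTR2 and 5454 ± 571 in iCKO, and 12544 ± 207 in CTR1 and 11002 ± 97.9 in mCKO. Both knockouts had every library below every library of its control. Most of each sum was Slc25a4, which made up 70.8 ± 0.412% of the summed RPKM in CTR2 and 64.1 ± 2.53% in iCKO.

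The balance of the ADP/ATP carriers differed between groups. The ratio of the Slc25a4 level to the Slc25a5 level, both in RPKM, was 17.6, 17.01 and 18.6 in the CTR2 libraries and 8.03, 5.89 and 5.83 in iCKO. In the constitutive experiment it was 14.4, 15.2 and 14.6 in CTR1 and 12.6, 11.3 and 10.8 in mCKO. Neither knockout overlapped its control, and a scaling factor common to a library cancels in this ratio. Slc25a5 held 3.997 ± 0.181% of the summed RPKM in CTR2 and 9.93 ± 1.59% in iCKO. Reference annotation used here lists a processed copy of this gene, Slc25a5-ps. Which annotation the counts rest on, and how reads shared with that copy were counted, is not stated. Between the aspartate/glutamate carriers the ratio of Slc25a12 to Slc25a13 was 1.04, 1.21 and 1.06 in CTR2 and 1.82, 1.47 and 1.57 in iCKO, and 1.19, 1.09 and 1.28 in CTR1 and 1.14, 1.10 and 1.13 in mCKO, where the groups overlapped.

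**Figure D2:**
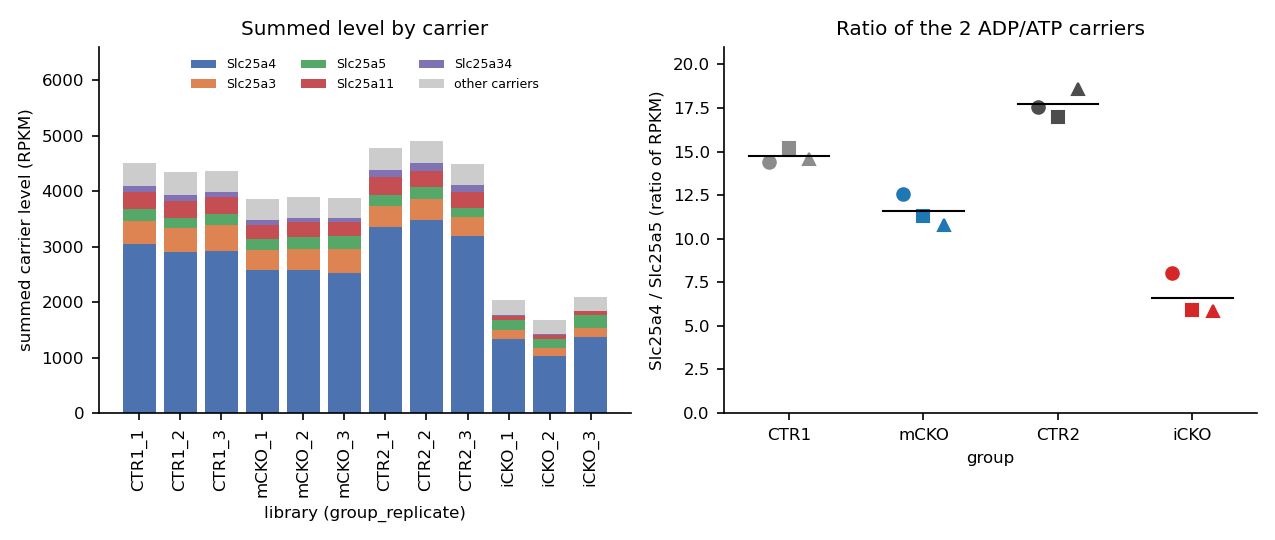
Left: summed carrier level in RPKM per library, stacked by carrier. Right: ratio of Slc25a4 to Slc25a5 (ratio of RPKM) in each library, with a line at the group mean. The iCKO bars are the lowest, and the ratio falls from 17.7 in CTR2 to 6.59 in iCKO and from 14.7 in CTR1 to 11.6 in mCKO.

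After inducible deletion, carriers that fell included the muscle ADP/ATP carrier Slc25a4, the phosphate carrier Slc25a3, the acylcarnitine carrier Slc25a20, the oxoglutarate carrier Slc25a11 and both aspartate/glutamate carriers, whereas the second ADP/ATP carrier, Slc25a5, was not called. Of the 46 carriers, 40 had enough counts to be tested. In iCKO against CTR2, 19 of the 40 were lower at a Benjamini-Hochberg adjusted p under 0.05 (edgeR quasi-likelihood), or 47.5%, where 19.5% of all tested genes were called lower. The 5 carriers that were higher, Slc25a1, Slc25a24, Slc25a40, Slc25a43 and Slc25a45, made up 12.5%, where 25.2% of all genes were called higher. The median log2 fold change was -0.44 over the 40 carriers and 0.03 over all 13548 genes tested. Scaling by library totals alone, without the TMM factors, moved the median of all genes to 0.24 and that of the carriers to -0.23. That scaling called 16 carriers lower and 5 higher, with 13.5% of all genes lower and 33.9% higher (47.4% in all), and Slc25a33, Slc25a35 and Slc25a51 were no longer called.

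Counted by separation, 21 of the 40 carriers had all 3 iCKO libraries below all 3 CTR2 libraries, where 27% of all tested genes did, and 5 had all 3 above, where 31.9% of all genes did. Markers of other cell types moved in the same comparison. Of the cardiomyocyte markers 6 of 8 fell and none rose, while all 8 macrophage markers and 5 of 8 fibroblast markers rose (1 fell), with summed macrophage markers at 319 to 423 CPM in CTR2 and 874 to 1762 in iCKO and summed fibroblast markers at 879 to 1037 and 3160.4 to 5044. Among endothelial markers 4 of 8 fell (1584 to 1844 CPM summed in CTR2, 1032 to 1247 in iCKO), among pericyte and smooth muscle markers 4 rose and 3 fell of 8 (1554 to 1627 against 1004 to 1193), and all 5 erythroid markers fell (257 to 1170.2 against 60.1 to 260.5). Of 5 skeletal muscle markers tested 4 rose and 1 fell (2729 to 3022 against 3022 to 3628), 1 of 2 atrial markers tested rose (2.83 to 7.95 against 23.3 to 26.5), and adipocyte markers summed to 0.424 to 1.16 CPM in CTR2 and 0.335 to 0.402 in iCKO and were not tested. Their part in the carrier results was not tested.

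**Figure D3:**
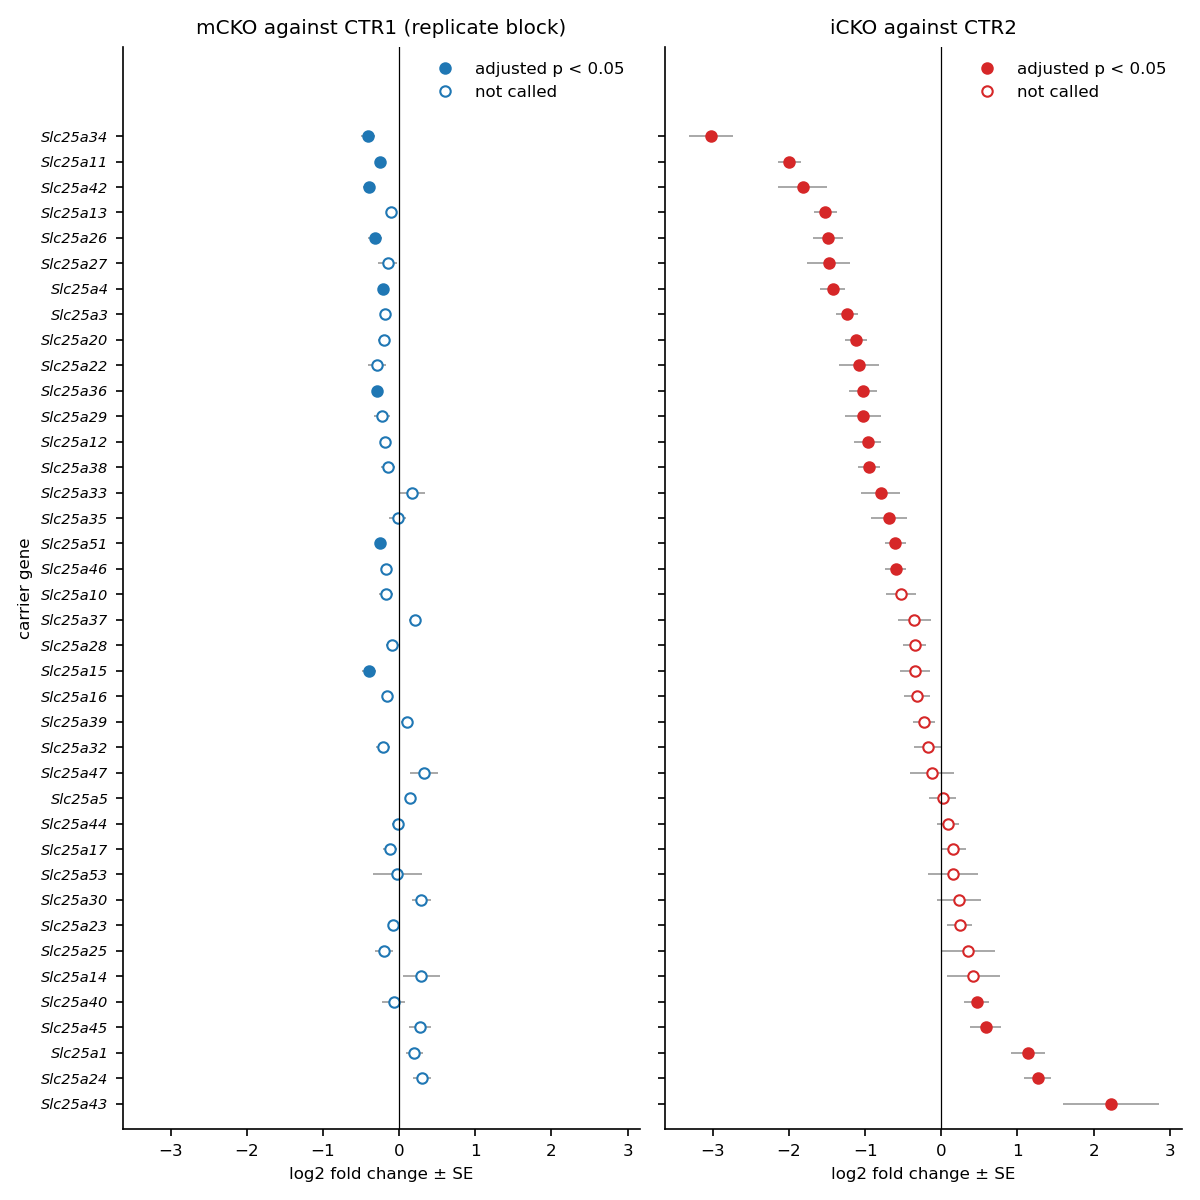
Log2 fold change with its SE for 39 carriers tested in iCKO, ordered by the iCKO value, in mCKO with the replicate block (left) and in iCKO (right), on a shared axis. Filled points passed an adjusted p of 0.05: 18 carriers lie to the left and 5 to the right in iCKO, and 8 to the left in mCKO. Slc25a43 was not tested in mCKO.

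Among carriers of energy nucleotides and phosphate, Slc25a4 stood at 7906, 8206 and 7504 CPM in the CTR2 libraries and 3151, 2411 and 3229.6 in iCKO. It fell 2.69-fold (log2 fold change -1.43 ± 0.161 (SE), edgeR adjusted p = 0.00032). Slc25a3, which brings phosphate for ATP synthesis and also carries copper into the matrix, fell from 2096, 2091 and 1865 to 921, 775 and 863 CPM, or 2.36-fold (log2 fold change -1.24 ± 0.145 (SE), edgeR adjusted p = 0.00036). Neither gene's groups overlapped. Slc25a5, by contrast, measured 315, 338 and 282 CPM in CTR2 and 274, 286 and 387 in iCKO, with the third iCKO library highest (log2 fold change 0.02 ± 0.178 (SE), edgeR adjusted p = 0.93). The interval of 2 SE on either side of that value spans a difference of zero, and its sign changed with another scaling, without that library and without replicate 3 of CTR2. Slc25a31, the germ-cell ADP/ATP carrier, had 1, 3 and 3 counts in CTR2 and 1, 6 and 5 in iCKO and was not tested there.

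Of the calcium-regulated carriers that exchange ATP-Mg for phosphate, Slc25a24 rose and the others were not called. Slc25a24 measured 7.95, 9.42 and 6.73 CPM in CTR2 and 19.1, 20.9 and 17.9 in iCKO, 2.40-fold higher (log2 fold change 1.26 ± 0.178 (SE), edgeR adjusted p = 0.00083). Slc25a23, the member of this group with the highest RPKM, measured 72.01, 60.8 and 74.6 and 97.4, 77.4 and 70.3 CPM (log2 fold change 0.24 ± 0.168, edgeR adjusted p = 0.27). Slc25a25 was spread, with replicate 2 of CTR2 highest: it had 9.56, 22.5 and 9.33 CPM against 13.3, 17.3 and 22.2 in iCKO (edgeR adjusted p = 0.45). In the 6 fits that left out a library its log2 fold change ran from 0.11 to 0.89, and 1 of them called it higher. Slc25a41, which lies 2056 bp from Slc25a23 on chromosome 17, had 0, 0 and 0 counts in CTR2 and 1, 1 and 0 in iCKO.

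Transcripts of each carrier of the malate-aspartate shuttle fell. Slc25a11, which exchanges oxoglutarate for malate, stood at 703, 617 and 607 CPM in CTR2 and 176, 151 and 156 in iCKO, 3.99-fold lower (log2 fold change -1.997 ± 0.152 (SE), edgeR adjusted p = 7.9e-05), the smallest adjusted p among the 40 carriers. Rnf167, on the opposite strand, overlaps 8.9% of the Slc25a11 exon length, and whether the counting used strand is not stated. The aspartate/glutamate carrier of heart and brain, Slc25a12, fell from 372, 386 and 343 to 224, 182 and 157 CPM (log2 fold change -0.97 ± 0.172 (SE), edgeR adjusted p = 0.0025). Slc25a13, its paralog best known from liver, fell from 185, 164 and 167 to 63.9, 64.2 and 51.6 CPM (log2 fold change -1.52 ± 0.151 (SE), edgeR adjusted p = 0.00018). Both were lower in every iCKO library than in any CTR2 library. The glutamate carrier Slc25a22 measured 52.8, 92.9 and 67.2 and 38.9, 38.7 and 23.3 CPM and fell 2.11-fold (edgeR adjusted p = 0.011), whereas the second glutamate carrier, Slc25a18, had at most 9 counts in any library of these groups.

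Among the other carriers of di- and tricarboxylates, edgeR called 1 higher and none lower. Slc25a1, which exports citrate and so supplies cytosolic acetyl-CoA for lipid synthesis, rose 2.20-fold, from 5.97, 6.07 and 7.45 to 11.03, 13.6 and 18.3 CPM (log2 fold change 1.14 ± 0.225 (SE), edgeR adjusted p = 0.0041). Slc25a10, the dicarboxylate carrier, measured 18.3, 13.1 and 17.3 CPM in CTR2 and 9.82, 10.4 and 13.6 in iCKO and was not called by edgeR (log2 fold change -0.53 ± 0.200, adjusted p = 0.061). DESeq2 called Slc25a10 lower (adjusted p = 0.039), as did edgeR in 2 of the 6 fits that left out a library, those without replicate 3 of iCKO or replicate 2 of CTR2 (adjusted p = 0.013 and 0.034). The oxodicarboxylate carrier Slc25a21 had 2, 0 and 0 counts in CTR2 and 0, 0 and 0 in iCKO. Slc25a20, which exchanges acylcarnitines for carnitine in fatty acid oxidation, was nearly constant in CTR2 at 261, 262 and 263 CPM and stood at 125, 107 and 130.0 in iCKO, 2.17-fold lower (log2 fold change -1.12 ± 0.143 (SE), edgeR adjusted p = 0.00053).

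Among carriers of amino acids, Slc25a38, the glycine carrier that feeds heme synthesis, was tightly grouped at 28.6, 29.2 and 28.8 CPM in CTR2 and 14.6, 14.1 and 16.2 in iCKO (log2 fold change -0.95 ± 0.141 (SE), edgeR adjusted p = 0.001). Slc25a29, a carrier of basic amino acids, fell from 15.1, 21.2 and 12.1 to 7.34, 7.08 and 9.35 CPM (log2 fold change -1.03 ± 0.236 (SE), edgeR adjusted p = 0.0083). The others were not called. Slc25a44, a carrier of branched-chain amino acids, measured 36.2, 41.8 and 35.1 and 41.6, 42.4 and 36.3 CPM (log2 fold change 0.09 ± 0.143), and Slc25a15, the ornithine carrier, measured 21.96, 13.98 and 19.3 and 15.6, 14.5 and 13.5 (log2 fold change -0.34 ± 0.194, edgeR adjusted p = 0.18). Slc25a2, a second ornithine carrier, had at most 7 counts in any library.

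Carriers of cofactors also fell. Slc25a42, which imports coenzyme A, measured 114, 84.1 and 113 CPM in CTR2 and 41.3, 31.1 and 15.8 in iCKO, 3.53-fold lower (log2 fold change -1.82 ± 0.320 (SE), edgeR adjusted p = 0.0024), with the third iCKO library lowest. Slc25a26, the carrier of S-adenosylmethionine, the methyl donor, fell from 21.1, 15.02 and 19.5 to 7.38, 6.76 and 5.63 CPM (log2 fold change -1.49 ± 0.195 (SE), edgeR adjusted p = 0.0006). Slc25a51, the NAD carrier, fell less, from 114, 116 and 112 to 83.4, 74.4 and 67.6 CPM (log2 fold change -0.60 ± 0.138, edgeR adjusted p = 0.0082), and missed the threshold when only library totals were used for scaling (-0.39, adjusted p = 0.051). Slc25a16, Slc25a17 and Slc25a32 were not called, with log2 fold changes of -0.32, 0.16 and -0.18.

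The mitoferrins, which import iron, were not called: Slc25a28 measured 31.98, 29.9 and 34.1 CPM in CTR2 and 24.5, 22.5 and 28.4 in iCKO (log2 fold change -0.35 ± 0.149, edgeR adjusted p = 0.088), without overlap, and Slc25a37 measured 23.99, 22.6 and 26.4 and 23.3, 20.8 and 13.1 (log2 fold change -0.35 ± 0.219), with overlap. Both carriers of pyrimidine nucleotides were lower. Slc25a36 fell from 58.2, 69.2 and 66.6 to 38.1, 32.5 and 24.3 CPM (log2 fold change -1.03 ± 0.186 (SE), edgeR adjusted p = 0.0027), and Slc25a33 from 15.2, 28.9 and 16.5 to 11.6, 10.4 and 12.97 (log2 fold change -0.80 ± 0.256 (SE), edgeR adjusted p = 0.034). The Slc25a33 call rested on single libraries: without replicate 2 of CTR2 its log2 fold change was -0.45 (edgeR adjusted p = 0.078), and without replicate 1 or replicate 2 of iCKO the adjusted p was 0.067 and 0.11. An antisense gene covers 14.9% of its exon length, and whether the counting used strand is not stated.

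The glutathione carriers differed from each other in call. Slc25a39, the abundant one, measured 121, 137 and 124 CPM in CTR2 and 98.7, 108 and 120.5 in iCKO; its groups did not overlap, and the change was not called (log2 fold change -0.23 ± 0.143, edgeR adjusted p = 0.23). Slc25a40 was higher, at 10.4, 10.1 and 8.57 and 14.1, 11.98 and 14.1 CPM (log2 fold change 0.47 ± 0.166 (SE), edgeR adjusted p = 0.048). That call was lost when any single library was left out, with adjusted p up to 0.19. Slc25a46, an outer membrane protein of mitochondrial fission and lipid transfer, fell from 136, 118 and 122 to 87.7, 80.7 and 79.7 CPM (log2 fold change -0.60 ± 0.135 (SE), edgeR adjusted p = 0.0074). The Slc25a46 call held with library totals alone for scaling (edgeR adjusted p = 0.043) and was lost when the replicate block was added to them (-0.39, 0.10). A gene on the opposite strand, B930094E09Rik, overlaps 7.06% of its exon length.

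The uncoupling-protein-like carriers first described in brain and kidney were of low level here. Slc25a27 fell from 10.02, 13.4 and 13.4 to 6.24, 3.91 and 3.06 CPM (log2 fold change -1.48 ± 0.280 (SE), edgeR adjusted p = 0.0035), whereas Slc25a14 and Slc25a30 were not called, with log2 fold changes of 0.42 ± 0.346 and 0.23 ± 0.287. Slc25a30 measured 6.68, 7.02 and 5.97 CPM in CTR2 and 9.75, 8.88 and 4.51 in iCKO, the third iCKO library being the lowest of its group.

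Of the members placed in no substrate group here, Slc25a34 had the lowest log2 fold change of the 40 carriers. It stood at 311, 379.9 and 319.7 CPM in CTR2 and 54.01, 45.3 and 24.6 in iCKO, 8.15-fold lower (log2 fold change -3.03 ± 0.289 (SE), edgeR adjusted p = 0.00016), with the third iCKO library again lowest and no overlap between groups. Its relative Slc25a35 measured 8.15, 5.89 and 7.19 and 5.66, 3.77 and 3.76 CPM (log2 fold change -0.68 ± 0.241 (SE), edgeR adjusted p = 0.047). The Slc25a35 call did not hold without replicate 2 or 3 of iCKO or replicate 1 or 3 of CTR2 (adjusted p from 0.068 to 0.15), and 31.3% of its exon length lies opposite an exon of Rangrf. Slc25a45 was higher, at 4.35, 4.38 and 3.21 and 5.81, 6.10 and 5.99995 CPM (log2 fold change 0.58 ± 0.207 (SE), edgeR adjusted p = 0.048), a call lost without any single library (adjusted p up to 0.19). Slc25a43 had 1, 2 and 5 counts in CTR2 and 12, 27 and 14 in iCKO (log2 fold change 2.23 ± 0.624 (SE), edgeR adjusted p = 0.02), so its fold rests on few reads, and without replicate 2 of iCKO or replicate 1 or 2 of CTR2 the adjusted p was 0.07 to 0.076. It lies 18289 bp from Slc25a5 on chromosome X, and Slc25a5 was not called, as given above. Slc25a47, which lies 13956 bp from Slc25a29 on chromosome 12, and Slc25a53 were not called (log2 fold changes -0.12 ± 0.288 and 0.16 ± 0.329), and Slc25a48 had at most 2 counts in any library.

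Bases just before the RefSeq start sites are shown for 4 carriers that behaved differently in iCKO, 2 that fell (Slc25a34 and Slc25a3), Slc25a5, which was not called, and Slc25a24, which rose. The bases are those within 250 of the start that no RefSeq or GENCODE M21 model of the gene covers, written 5′ to 3′ on the gene's strand with GRCm38.p6 coordinates, namely chr4:141623892-141624084 (minus strand), chr10:91124060-91124217 (minus strand), chrX:36795347-36795596 (plus strand) and chr3:109122899-109123148 (plus strand). Capitals mark the GC box (GGGCGG), the CCAAT box with those letters, the extended binding site of orphan nuclear receptors (AAGGTCA) and the TATA box (TATAAA), each searched on both strands.
Slc25a34: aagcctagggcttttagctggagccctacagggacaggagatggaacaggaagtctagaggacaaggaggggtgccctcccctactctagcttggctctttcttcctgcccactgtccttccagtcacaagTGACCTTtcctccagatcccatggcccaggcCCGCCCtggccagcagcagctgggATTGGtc
Slc25a3: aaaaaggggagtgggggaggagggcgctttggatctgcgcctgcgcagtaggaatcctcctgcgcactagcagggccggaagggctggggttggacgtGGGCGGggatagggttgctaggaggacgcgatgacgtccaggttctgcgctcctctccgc
Slc25a5: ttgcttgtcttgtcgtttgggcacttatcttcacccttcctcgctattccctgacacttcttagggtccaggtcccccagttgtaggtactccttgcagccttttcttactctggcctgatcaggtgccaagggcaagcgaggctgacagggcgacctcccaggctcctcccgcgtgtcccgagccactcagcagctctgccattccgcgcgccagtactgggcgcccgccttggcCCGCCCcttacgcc
Slc25a24: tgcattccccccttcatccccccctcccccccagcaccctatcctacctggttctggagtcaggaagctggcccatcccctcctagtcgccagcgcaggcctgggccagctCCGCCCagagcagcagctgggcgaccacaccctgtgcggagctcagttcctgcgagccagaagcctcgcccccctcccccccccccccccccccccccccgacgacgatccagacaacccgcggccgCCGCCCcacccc
These windows hold a GC box in each of the 4 genes, on the strand opposite to the printed one in Slc25a34, Slc25a5 and Slc25a24. The Slc25a34 window also holds a CCAAT box and AAGGTCA, both on the strand opposite to the printed one. Promoters were matched by symbol for 35 of the 46 carriers, 45 promoters in all. In the 250 bases before the start, a GC box was found in 71.1% of these 45 and in 32.7% of all 32851 RefSeq promoters, CCAAT in 46.7% and 33.8%, TATAAA in 4.44% and 12.4%, and AAGGTCA in 2.22%, the Slc25a34 promoter alone, and 4.08%. Several promoters can belong to 1 gene, so the 45 are not independent. The shares are descriptions of sequence and not of binding. They use all 250 bases, including bases of the kind left out of the printed windows because a model of the gene covers them.

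In the constitutive model most carriers had log2 fold changes below 0, and calls depended on the replicate block. Without the replicate block edgeR called none of the 40 carriers tested in mCKO against CTR1, and 0% of all 13353 genes, of which 1164 had an unadjusted p under 0.05. DESeq2 and limma-voom also called no carrier, though DESeq2 called 262 genes. With the replicate number as a block, 8 carriers fell and none rose, 20% of the 40, where 6.45% of all genes were called lower and 7.32% higher. The median log2 fold change was -0.15 over the carriers, 29 of them below 0, and 0.005 over all genes. The 8 were Slc25a4, Slc25a11, Slc25a34, Slc25a42, Slc25a26, Slc25a36, Slc25a51 and Slc25a15. Macrophage markers (8 of 8) and fibroblast markers (4 of 8) rose, and cardiomyocyte markers (5 of 8) fell in the same fit. Summed macrophage markers were 462 to 712 CPM in CTR1 and 626 to 1172 in mCKO, and summed fibroblast markers 989 to 1628 and 1138 to 1985. Of skeletal muscle markers 3 of 5 rose and 1 fell, of pericyte and smooth muscle markers 1 of 8 rose and 1 fell, and no endothelial, erythroid, atrial or adipocyte marker was called. Adipocyte markers summed to 0.313 to 13.9 CPM in CTR1 and 0.0503 to 2.81 in mCKO. Their part in the carrier results was not tested.

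The 8 calls depend on which libraries and which scaling entered. With the block and library totals alone for scaling, 3 carriers were lower (Slc25a15, Slc25a34 and Slc25a42) and 2 higher (Slc25a24 and Slc25a37), where 3.55% of all genes were lower and 11.8% higher. Without both replicate 3 libraries and without the block, 5 were lower: Slc25a3, Slc25a4, Slc25a11, Slc25a26 and Slc25a42, where 3.94% of all genes were lower and 3.85% higher, 7.79% in all. With the block and without the libraries numbered 1, 3 carriers were lower (Slc25a34, Slc25a36 and Slc25a42) and 1 higher (Slc25a47), where 5.52% of all genes were lower and 5.69% higher, so the share of carriers was near that of all genes. Without those numbered 2 there were again 3 lower (Slc25a15, Slc25a42 and Slc25a51) and 1 higher (Slc25a33), where 3.31% and 4.79% of all genes were. Without those numbered 3 no carrier was called, where 1.27% of all genes were lower and 1.63% higher. By separation, 9 of the 40 had all mCKO libraries below all CTR1 libraries, or 22.5%, where 7.3% of all genes did, and none had all above, where 7.69% of all genes did.

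Slc25a4 measured 7158, 6831 and 6872 CPM in the CTR1 libraries and 6058, 6065 and 5938 in mCKO, 1.15-fold lower (with the block, log2 fold change -0.21 ± 0.0531 (SE), edgeR adjusted p = 0.026), against an adjusted p of 0.59 without it. The second ADP/ATP carrier, Slc25a5, measured 348, 314 and 329 and 337, 375 and 384 CPM and was not called (log2 fold change 0.14 ± 0.0732, adjusted p = 0.22 with the block). Slc25a3 stood at 2379, 2387 and 2645 and 2035, 2089 and 2422 CPM and missed the threshold of edgeR with the block (adjusted p = 0.057), replicate 3 being highest in each group. Slc25a11 was close within each group, at 639, 624 and 639.8 CPM in CTR1 and 525, 539 and 539 in mCKO (with the block, log2 fold change -0.25 ± 0.0605 (SE), edgeR adjusted p = 0.021; 0.54 without it). Neither Slc25a4 nor Slc25a11 overlapped between groups.

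Slc25a34 and Slc25a42, the coenzyme A carrier, were lowest in replicate 3 of both groups. Slc25a34 measured 285, 309 and 234 CPM in CTR1 and 245, 190.0 and 189 in mCKO, so that the groups overlapped (with the block, log2 fold change -0.41 ± 0.0908 (SE), edgeR adjusted p = 0.018; 0.56 without it). Slc25a42 measured 160.3, 145 and 90.1 and 107, 122 and 70.2 CPM, again with overlap, and each mCKO library was below the CTR1 library of its number (with the block, log2 fold change -0.40 ± 0.0735 (SE), edgeR adjusted p = 0.0058; 0.83 without it). Slc25a15, the ornithine carrier, measured 22.6, 21.4 and 18.03 and 15.5, 17.7 and 13.9 CPM (with the block, log2 fold change -0.40 ± 0.0962 (SE), edgeR adjusted p = 0.02; 0.5 without it). It was the member of the 8 that was not called in iCKO.

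The remaining calls in mCKO were of cofactor and nucleotide carriers. Slc25a26 measured 26.8, 26.9 and 25.5 CPM in CTR1 and 18.97, 21.2 and 23.4 in mCKO, Slc25a36 48.2, 49.7 and 46.03 and 40.1, 41.6 and 36.5, and Slc25a51 108, 102 and 97.8 and 88.9, 93.9 and 77.4. All 3 were without overlap, with log2 fold changes in the blocked fit of -0.32 ± 0.0936, -0.29 ± 0.0671 and -0.25 ± 0.0664 (edgeR adjusted p = 0.045, 0.018 and 0.031). Without the block the adjusted p-values of these genes were 0.48, 0.45 and 0.6. Slc25a20 measured 291, 277 and 264 and 226, 259.6 and 239 CPM, also without overlap, and was not called (adjusted p = 0.085 with the block). Slc25a12 and Slc25a13, the aspartate/glutamate carriers, had log2 fold changes of -0.18 ± 0.0620 and -0.11 ± 0.0630 and were not called.

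The split between numbers 1 and 2 and number 3 was larger in some carriers than the difference between groups. Slc25a27, an uncoupling-protein-like carrier, measured 16.6, 16.3 and 3.75 CPM in CTR1 and 13.8, 13.5 and 4.37 in mCKO, and Slc25a24 measured 6.21, 7.05 and 12.9 and 7.75, 8.54 and 15.9. Slc25a39 and Slc25a1 were also high in replicate 3 of both groups, at 125, 111 and 173 and 118, 130.1 and 192 CPM for the first and 8.85, 8.36 and 12.2 and 9.51, 9.90 and 14.5 for the second. For Slc25a37, mitoferrin-1, the third library was lowest in each, at 29.6, 28.8 and 17.99 and 35.005, 32.3 and 21.1. None of these 5 was called in mCKO by the fits with or without the block on TMM factors.

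**Figure D4:**
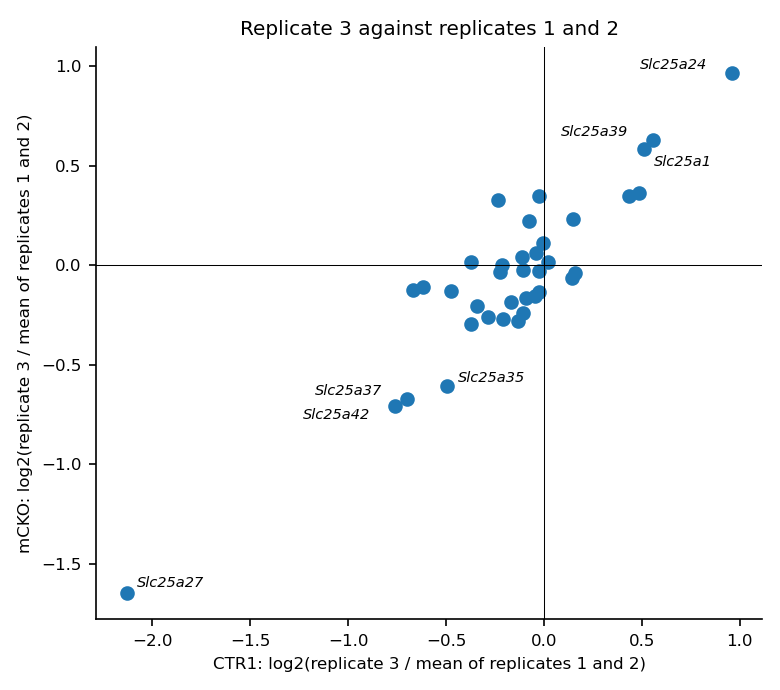
Log2 ratio of the replicate 3 CPM to the mean of replicates 1 and 2, for CTR1 on the x axis and mCKO on the y axis, with a point for each of 37 carriers that had counts enough for the ratio. Points run along the diagonal, from Slc25a27 at the lower left to Slc25a24 at the upper right.

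The change in mCKO and the change in iCKO were compared in a single fit over the 12 libraries, as the mCKO log2 fold change minus the iCKO log2 fold change. Of 41 carriers tested, 12 differed and all 12 were positive (29.3%, where 11% of all 13871 genes tested were positive and 9.88% negative). All 12 were called lower in iCKO, and a positive value means that the mCKO log2 fold change was the higher one. The difference was 2.67 ± 0.335 for Slc25a34 (edgeR adjusted p = 0.00035), 1.79 ± 0.161 for Slc25a11 (5.4e-05), 1.45 ± 0.204 for Slc25a13 (0.00066), 1.25 ± 0.186 for Slc25a4 (0.00096) and 1.10 ± 0.176 for Slc25a3 (0.0015). It was also called for Slc25a20, Slc25a26 and Slc25a38, and for Slc25a12, Slc25a36 and Slc25a42, whose calls depended on single libraries. With library totals alone for scaling 10 carriers were positive, since Slc25a36 and Slc25a42 were no longer called (edgeR adjusted p = 0.071 and 0.068), where 7.95% of all genes were positive and 15.5% negative. Slc25a36 was also not called with library totals and the block (0.07). When each library was left out in turn, Slc25a12 was called in 9 of 12 fits (not without replicate 3 of CTR1, 2 of mCKO or 1 of CTR2), with edgeR adjusted p up to 0.062. Slc25a36 was called in 6 (not without any CTR1 library, replicate 2 of mCKO, or replicate 2 or 3 of CTR2) and Slc25a42 in 2 (only without replicate 3 of mCKO or 1 of iCKO), with adjusted p up to 0.079 and 0.12. With the replicate block 15 were positive, Slc25a27, Slc25a35 and Slc25a46 being added, and 2 negative, Slc25a1 and Slc25a24, where 14.8% and 13.3% of all genes were called (28.1% in all). Slc25a15 fell in mCKO with the block and was not called in iCKO, but the test of the difference did not pass (-0.02 ± 0.243, edgeR adjusted p = 0.97). Slc25a5 had a difference of 0.15 ± 0.223 (adjusted p = 0.66). Both models use the Myh6 promoter, but the experiments differ in the form of Cre, tamoxifen and table. They may also differ in age, which is not stated for iCKO and CTR2. Which of these goes with the difference cannot be told apart.

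The calls in iCKO were also counted by level. With the carriers split at the median of their level in CTR1, a group that does not enter the iCKO comparison, 14 of the 20 more abundant carriers were called lower and none higher, and 5 of the 20 less abundant were called lower and 5 higher. Of all tested genes above the same CTR1 level, 7.60 RPKM, 30.2% were lower and 20.2% higher, and of those at or below it 13.5% were lower and 28.2% higher. Over the 40 carriers, log2 RPKM in CTR1 and the iCKO log2 fold change had a Pearson r of -0.63 and a Spearman rho of -0.66, given as a description since the carriers share the same libraries and the spread of scarce ones is wider. Slc25a5, Slc25a39 and Slc25a23 were abundant carriers that were not called. Scarce carriers that fell included Slc25a26, Slc25a27 and Slc25a35.

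**Figure D5:**
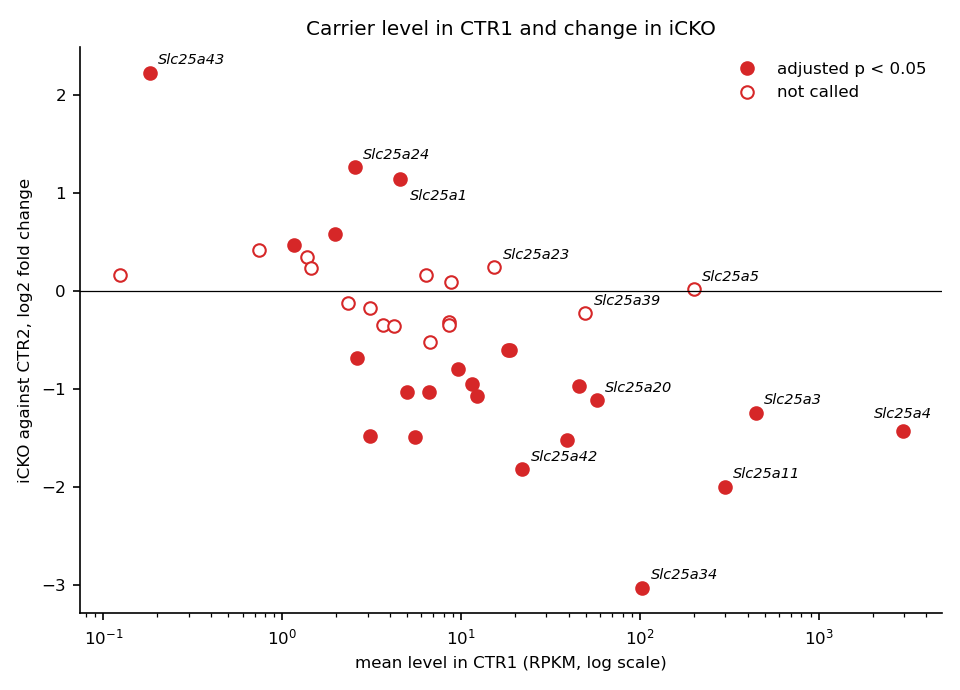
Mean RPKM in CTR1 (x axis, log scale) against the iCKO log2 fold change (y axis) for 39 carriers tested, filled where the adjusted p was under 0.05. The 5 carriers that rose all have a low level in CTR1, and Slc25a5 lies near 0 among abundant carriers that fell.

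Other genes of mitochondrial transport and metabolism were read from lists drawn up by function. For comparison, 19.5% of all tested genes were lower and 25.2% higher in iCKO, and 6.45% lower and 7.32% higher in mCKO with the block. All 11 genes of the mitochondrial content list (citrate synthase and respiratory complex subunits) fell in iCKO, with a median log2 fold change of -1.06, among them the ATP synthase subunit Atp5a1 (-1.37 ± 0.137, edgeR adjusted p = 0.00018), Sdha (-1.36 ± 0.149, edgeR adjusted p = 0.00028) and Ndufs1 (-1.30 ± 0.147, edgeR adjusted p = 0.00032), and 5 of 11 fell in mCKO with the block. Of 15 enzymes that work beside carriers, 9 fell in iCKO and none rose. They included Ckmt2, the mitochondrial creatine kinase (-2.03 ± 0.150, edgeR adjusted p = 7.3e-05), Mdh1, the cytosolic malate dehydrogenase of the shuttle (-1.85 ± 0.140, edgeR adjusted p = 7.9e-05), and Cpt2, which rebuilds acyl-CoA from the acylcarnitine that Slc25a20 brings in (-1.73 ± 0.153, edgeR adjusted p = 0.00012). In mCKO with the block 4 of these 15 fell, namely Crat, Cpt2, Ckmt2 and Glud1.

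Among 18 tested transporters of the inner membrane outside the family, 7 fell and 4 rose in iCKO. The share that rose was near that of all genes (25.2%). The pyruvate carrier subunit Mpc2 (-1.36 ± 0.175, edgeR adjusted p = 0.00055) and the transporter Abcb8 (-1.15 ± 0.134, edgeR adjusted p = 0.00036) were lower, and Sfxn1, a serine carrier (1.18 ± 0.155, edgeR adjusted p = 0.0006), was higher. Family members under other symbols gave 1 call of 4 in iCKO, Ucp3, an uncoupling protein of muscle (-2.54 ± 0.489, edgeR adjusted p = 0.0037). In mCKO with the block, Ucp2 rose (0.96 ± 0.0746, edgeR adjusted p = 4.8e-05) and Mtch1 fell (-0.40 ± 0.0686, edgeR adjusted p = 0.0037). Of the outer membrane pores 1 of 3 fell in iCKO, Vdac1 (-1.26 ± 0.141, edgeR adjusted p = 0.00031), and none was called in mCKO with the block.

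The machinery that imports carrier precursors into mitochondria gave few calls in iCKO, where 44.8% of all tested genes were called in either direction. In mCKO with the block its share of calls was near that of all genes (13.8%). Of 13 genes tested in iCKO, Tomm70a, the receptor for carrier precursors, was higher (0.64 ± 0.147, edgeR adjusted p = 0.0081), Timm29 (-0.49 ± 0.130, edgeR adjusted p = 0.016) and Agk (-0.54 ± 0.179, edgeR adjusted p = 0.037) of the inner membrane insertion complex were lower, and 10 were not called, with a median log2 fold change over the list of 0.06. In mCKO with the block, Timm10, a chaperone of the space between the membranes, rose (0.53 ± 0.0836, edgeR adjusted p = 0.0029), Tomm40, the outer membrane channel, fell (-0.21 ± 0.0640, edgeR adjusted p = 0.048) and 11 were not called.

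The carriers that were tested in neither or in 1 model had few reads, and 3 counts in a library correspond to 0.106 to 0.157 CPM. Slc25a2 had 2, 5 and 1 counts in CTR1 and 2, 0 and 3 in mCKO. Slc25a18 had 11, 4 and 0 and 14, 3 and 3, Slc25a43 4, 6 and 10 and 6, 7 and 7, Slc25a21 1, 0 and 0 and 2, 0 and 0, and Slc25a48 1, 0 and 0 and 0, 0 and 0. Slc25a31 was tested in mCKO with 5, 5 and 11 and 13, 13 and 0 counts and not called (edgeR adjusted p = 0.95 with the block). Apart from the calls of Slc25a43, differences in these genes were not detectable at this depth.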

How the data were processed

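RNA from left ventricle was sequenced in 12 libraries, prepared with a stranded mRNA kit per the labels' protocols. The authors deposited raw read counts per gene in 2 tables, and the submitters' processing notes name HISAT2, DESeq and GRCm38. No source used here names the annotation, the counting tool or its use of strand. Counts were scaled with TMM factors to CPM within each table, and levels set across tables rest on separately scaled values. RPKM used union exon lengths of GENCODE M21 (98.1% of genes matched, all 46 carriers), and positions and promoters came from RefSeq.

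Changes were tested with the edgeR 4.0.16 quasi-likelihood test in R 4.3.3, on genes passing its filter on low counts (minimum count 10, minimum total 15), with Benjamini-Hochberg adjustment over all genes tested and a threshold of 0.05. Each SE of an edgeR fit was worked back from its test, as the absolute log2 fold change over the square root of the F statistic. Alternatives were limma 3.58.1 (voom), DESeq2 1.42.0, other scalings, no filter, a replicate block and left-out libraries. The fits were also run on simulated counts that held no shift between replicates, so that run cannot judge the replicate block. In the constitutive experiment same-numbered libraries deviated together (r = 0.464, 0.532 and 0.823), as did replicates 1 and 2 across numbers (0.553 and 0.529). Its pairing comes from these values alone, since the labels do not state one. Carriers called by any of these comparisons, the 6 with the highest RPKM and the leading carrier of each role were named with every library's value, and other carriers more briefly. A carrier that enters the counts is not reported here by its own values and is left out of the figures. Members and lists were chosen with earlier results of these data known.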

Additional observations from a re-analysis of the deposited data

Results flagged for a closer look

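For 12 of 41 carriers tested the change in mCKO and the change in iCKO differed in a single edgeR fit over the 12 libraries. All 12 were positive, where 11% of all tested genes were positive and 9.88% negative, and 11 of them are given here. The difference, as the mCKO log2 fold change minus the iCKO log2 fold change, was 2.67 for Slc25a34, 1.79 for Slc25a11, 1.47 for the coenzyme A carrier Slc25a42, 1.45 for the aspartate/glutamate carrier Slc25a13 and 1.25 for Slc25a4. It was 1.21 for the S-adenosylmethionine carrier Slc25a26 and 1.10 for the phosphate carrier Slc25a3. The acylcarnitine carrier Slc25a20 differed by 0.95, the glycine carrier Slc25a38 by 0.84, Slc25a12 by 0.83 and the pyrimidine nucleotide carrier Slc25a36 by 0.79. When each library was left out in turn, Slc25a12 was called in 9 of 12 fits, Slc25a36 in 6 and Slc25a42 in 2. With library totals alone for scaling, Slc25a36 and Slc25a42 were not called.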

How the results depend on the processing

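The count of carriers lower in iCKO kept within 1.5 times of its value under every alternative run, and lay between 17 and 21 when single libraries were left out. The 5 higher in iCKO became 3 with DESeq2 size factors in edgeR, without the filter on low counts, with DESeq2 and with a replicate block, and 2 to 4 without single libraries. Of carriers not called in iCKO with all libraries, some were called in 1 of the 6 fits that left out a library. Slc25a25 and Slc25a30 were higher in such a fit, and Slc25a15, Slc25a28 and Slc25a39 lower. In mCKO the replicate block gave 8 lower, the block with library totals alone gave 3 lower and 2 higher, and leaving out both replicate 3 libraries gave 5 lower. The block without the libraries numbered 1, or without those numbered 2, gave 3 lower and 1 higher. Single libraries left out without the block gave 0 in each direction. In the difference between models, 2 carriers were negative with library totals alone (Slc25a1 and Slc25a43), 2 with the replicate block and 2 with both (Slc25a1 and Slc25a24 each time), 1 without both replicate 3 libraries (Slc25a24), and 0 to 2 without single libraries, where positive calls ranged from 8 to 13. In iCKO the numbers did not pair (r = 0.058, -0.090 and -0.161), and the block removed the calls of Slc25a33, Slc25a40 and Slc25a45.

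Signs changed only for carriers that edgeR without the block did not call, and in mCKO that fit called none. Slc25a24 in mCKO was called higher with the block and library totals alone, yet its sign changed without replicate 3 of mCKO. In mCKO, leaving out single libraries gave log2 fold changes from -0.0194 to 0.40 for Slc25a1, -0.10 to 0.70 for Slc25a24, -0.64 to 0.17 for Slc25a27 and -0.14 to 0.32 for Slc25a39. In iCKO they ran from -0.19 to 0.11 for Slc25a5, -0.37 to 0.11 for Slc25a47 and -0.0295 to 0.30 for Slc25a53, and in the difference from -0.21 to 0.10 for Slc25a15. Slc25a5 in iCKO was -0.0152 with DESeq2 size factors and -0.0182 with DESeq2, and its difference was -0.0057 with library totals alone. With library totals alone, and with these and the block, Slc25a32 was 0.036 and 0.038 and Slc25a47 0.084 and 0.050 in iCKO. The causes were not tested. RPKM from the longest transcript gave an Slc25a4 to Slc25a5 ratio of 13.6 in CTR1, 10.6 in mCKO and 16.3 in CTR2. The choice of length multiplies this ratio by the same factor in every library, so it cannot test the differences between groups. Depth limits the carriers with few counts, of which edgeR called Slc25a43 in iCKO, and in the difference with library totals alone or without replicate 3 of CTR2.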
